A study of Mus musculus with 4 samples.

Results

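The genes described here are 147 well expressed genes of female mouse embryonic stem cells (ESCs) whose RNA level fell to 0.5 of the control or less after exposure to GSK-J4, both without and with L-ascorbic acid (AA). GSK-J4 is a small molecule inhibitor of Utx and Jmjd3, the enzymes that remove methyl groups from lysine 27 of histone H3, and AA is vitamin C, a cofactor of that enzyme family. The paper reports that GSK-J4 can also inhibit other histone demethylases of the JmjC family, to which Utx belongs. In its data, trimethylation of another lysine of histone H3 was raised at tested genes that GSK-J4 induced. The level of a gene is its FPKM, the fragments per kilobase of exon scaled by the mapped fragments of the library, summed over the coding sequence groups of the gene. A gene was called well expressed where its FPKM was at least 10 in both DMSO libraries. It became a member where the GSK-J4 over DMSO ratio of FPKM was at most 0.5 in both comparisons. *Eras*, *Lin28a*, *Utf1*, *Mt3*, *Eif1a* and names starting with Rpl, Rps, Nduf, Psm or Slc were left out. Of 9779 genes with a value 4279 were well expressed, and 155 of these met both ratios. Leaving out 8 of them by name gave the 147 members, out of 4076 well expressed genes with a name that the rule allowed.

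LF2 ESCs of strain 129/J were grown on feeder cells and then passed 2 times without them. The cells then received DMSO or 10 µM GSK-J4 for 24 hr, in PBS or with 50 µg/ml AA, and 1 RNA-seq library was made for each of the 4 conditions. The libraries are named PBS+DMSO, PBS+GSK-J4, AA+DMSO and AA+GSK-J4, and the comparisons of GSK-J4 with DMSO are called without AA (or in PBS) and with AA (or in AA). Because each condition is 1 library of 1 cell line, no value has a replicate error, no test was run, and the fold differences describe these libraries. The comparisons without and with AA have no library in common.

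In ESCs, a short cell cycle and a large output of RNA and protein go with high expression of genes for splicing, protein folding, ribosome assembly and division. Trimethylation of lysine 27 on histone H3 marks genes held silent by Polycomb complexes, and Utx and Jmjd3 remove it. The RNA of a gene seen after 24 hr depends on its transcription and on how fast the RNA decays.

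The members were chosen by these ratios, which are given first as a description. The median GSK-J4 over DMSO ratio of the members was 0.436 without AA, with a range of 0.207 to 0.4999. With AA it was 0.445, with a range of 0.185 to 0.4998. Over all 4279 well expressed genes the median ratios were 0.746 and 0.770, so that the typical well expressed gene was also lower in the GSK-J4 libraries. A ratio of at most 0.5 was reached by 6.03% of the well expressed genes without AA (258 genes), by 4.95% with AA (212 genes) and by 3.62% in both (155 genes). The members together made up 19633 FPKM in PBS+DMSO against 8090 in PBS+GSK-J4, and 18507 FPKM in AA+DMSO against 8093 in AA+GSK-J4. Most members lay near the threshold: 92 of 147 had a ratio over 0.4 in both comparisons, 25 were at most 0.4 in both and 2 (*Dnmt3b* and *Fgf17*) at most 0.25 in both. Just inside the threshold lay *Rbm3* (0.464 without and 0.4998 with AA), *Kdm4c* (0.484 without and 0.499 with AA) and *Thop1* (0.4999 without and 0.440 with AA). Just outside it lay *Exosc3* (0.502 without and 0.471 with AA), *Ahsa1* (0.481 without and 0.502 with AA) and *Pdcd5* (0.502 without and 0.473 with AA).

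**Figure D1:**
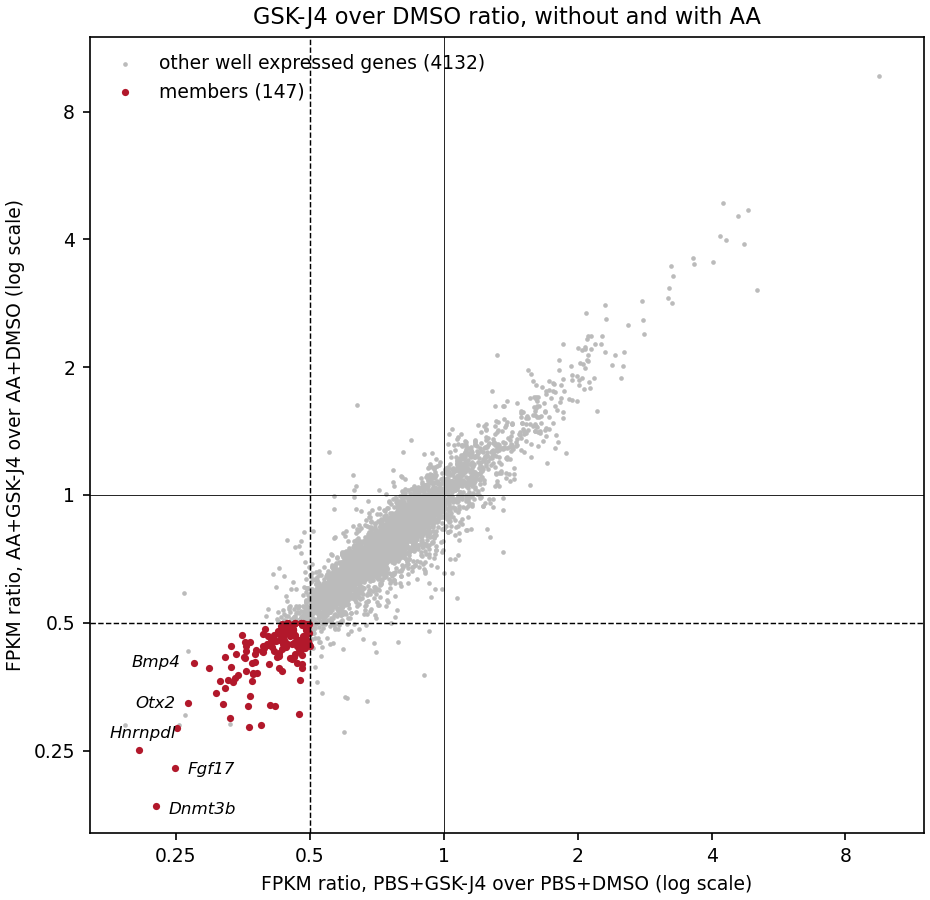
FPKM ratio of GSK-J4 over DMSO without AA (x axis) and with AA (y axis), both on log scales, for each well expressed gene, with the 147 members in red and the threshold of 0.5 dashed. The members fill the lower left corner, where the grey points are genes left out by name, and *Dnmt3b*, *Fgf17* and *Hnrnpdl* lie lowest.

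How the libraries are scaled to each other decides how many genes pass. Dividing each ratio by the median of the well expressed genes left 19 genes at 0.5 or less in both comparisons, scaling to the same total left 24, and scaling to the same upper quartile left 33. On the log2 scale the members' median was -1.20 without AA and -1.17 with AA, against -0.42 and -0.38 for all well expressed genes. The 19 genes that passed after median centring were *Actg1*, *Anp32a*, *Arglu1*, *Bend3*, *Dnmt3b*, *Dppa3*, *Fam169a*, *Fgf17*, *Fkbp5*, *Hnrnpdl*, *Mov10*, *Otx2*, *Pipox*, *Plk1*, *Racgap1*, *Sgk1*, *Snrnp70*, *Snrpa1* and *Srsf2*. In bulk RNA, fewer cells of a kind and less RNA per cell cannot be told apart.

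Of the 7 ESC markers examined, all had a value. Together they made up 2124 FPKM in PBS+DMSO against 1311 in PBS+GSK-J4, and 1892 FPKM in AA+DMSO against 1177 in AA+GSK-J4. *Pou5f1*, the gene for Oct4, was at 867 and 510.2 FPKM in the libraries without AA and at 799.9 and 479.7 in those with AA. Feeder fibroblast markers with a value (4 of 8) summed to between 12.7 and 17.5 FPKM in each library. Mesoderm, neural and primitive endoderm markers with a value summed to under 3 FPKM for each kind, and *Tfap2c*, the trophoblast marker with a value, lay between 10.5 and 17.2. The other markers were not analysed here, and the part of these cells in the results was not tested.

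The members are described by role. The 15 role groups hold 124 of the 147 members and were drawn up after the members' values had been seen, so their sizes and ratios are a description. In each member both DMSO libraries lay above both GSK-J4 libraries, which the rule nearly fixes.

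Splicing and mRNA binding was the largest group, with 18 members. Their ratios ran from 0.207 to 0.491 in PBS and 0.2505 to 0.4998 in AA. SR proteins bind exons through RNA recognition motifs and recruit the spliceosome through domains rich in arginine and serine, and 3 of them are members. *Srsf3* fell in PBS from 321 to 119 FPKM and in AA from 294 to 118 FPKM. *Srsf7* fell in PBS from 124 to 44.4 FPKM and in AA from 113 to 46.6 FPKM. *Srsf2*, an SR protein that stays in the nucleus, had the lowest ratios of the 3 and fell in PBS from 92.0 to 30.5 FPKM and in AA from 93.2 to 27.8 FPKM. *Hnrnpdl*, an RNA-binding protein related to *Hnrnpd*, had the lowest ratio of all members without AA and fell in PBS from 25.5 to 5.26 FPKM and in AA from 21.1 to 5.28 FPKM. *Hnrnpd* and *Enoph1* lie at the same locus in the tables, so reads could be shared between these names. *Arglu1*, a splicing regulator and transcriptional coactivator, fell in PBS from 19.3 to 4.85 FPKM and in AA from 17.4 to 4.89 FPKM.

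Among the proteins of the small nuclear ribonucleoproteins, *Snrnp70* of U1 and *Snrpa1* of U2 had lower ratios than the Sm ring proteins. *Snrnp70* fell in PBS from 115 to 37.7 FPKM and in AA from 108 to 39.5 FPKM, and *Snrpa1* fell in PBS from 111 to 35.8 FPKM and in AA from 105 to 37.0 FPKM. *Snrpd1*, an Sm ring protein, fell in PBS from 239 to 105 FPKM and in AA from 221 to 104 FPKM. *Snrpd3*, also of the Sm ring, had ratios of 0.464 without and 0.468 with AA. *Nono*, a paraspeckle protein, fell in PBS from 349 to 157 FPKM and in AA from 292 to 139.6 FPKM. *Dhx9*, an RNA helicase, had ratios of 0.403 without and 0.442 with AA, and *Tra2b*, an SR-like splicing regulator, of 0.452 without and 0.475 with AA.

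The families around these members, also put together after the values were seen, hold both members and others. Among all well expressed genes with allowed names 3.61% are members. That share was 5.79% at 50 to 100 FPKM in PBS+DMSO and 9% at 100 to 200, and the part of level in the family counts was not tested. Of 9 well expressed SR protein genes 3 are members, and the ratios of the 9 spanned 0.331 to 0.663 in PBS and 0.299 to 0.735 in AA. The highest ratios were those of *Srsf5*, which was at 175.9 and 116.7 FPKM without AA and at 166 and 122 with AA. Of 12 Sm, U1 and U2 genes 4 are members, with ratios of 0.323 to 0.675 and of 0.351 to 0.638. Of 38 DEAD and DEAH box helicase genes 4 are members (*Ddx18*, *Ddx21*, *Ddx39* and *Dhx9*), with median ratios of 0.664 and 0.682 over the 38. The ratios of this family reached above 1, in *Ddx59* (1.73 without and 1.53 with AA) and *Ddx19b* (1.503 without and 1.47 with AA). By gene name, 64 well expressed genes are splicing factors, of which 7 are members. Their median ratios were 0.550 and 0.579, where genes of the same level bin had medians of 0.661 and 0.701, and all 64 lay below 1 in both comparisons.

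For *Srsf7* the fall was unequal over the coding sequence groups, which are the sets of transcripts that encode the same protein. The first group fell in PBS from 61.9 to 28.5 FPKM and in AA from 54.1 to 27.4 FPKM. The second went in PBS from 36.1 to 1.08 FPKM and in AA from 31.7 to 0.00148 FPKM, so that it was low in both GSK-J4 libraries. The last of the 3 fell in PBS from 26.5 to 14.8 FPKM and in AA from 26.7 to 19.1 FPKM. The groups also differed in *Mov10*, an RNA helicase, though by less, with ratios of 0.267 and 0.526 without AA and of 0.287 and 0.559 with AA. With its largest group alone, *Srsf7* had ratios of 0.461 without and 0.507 with AA, and would not have been a member. The same holds for *Rbm3* (0.453 without and 0.512 with AA) and *Myc* (0.386 without and 0.563 with AA). In all, 16 members have several coding sequence groups, and the split of reads between groups of 1 gene is an estimate of the authors' software.

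**Figure D2:**
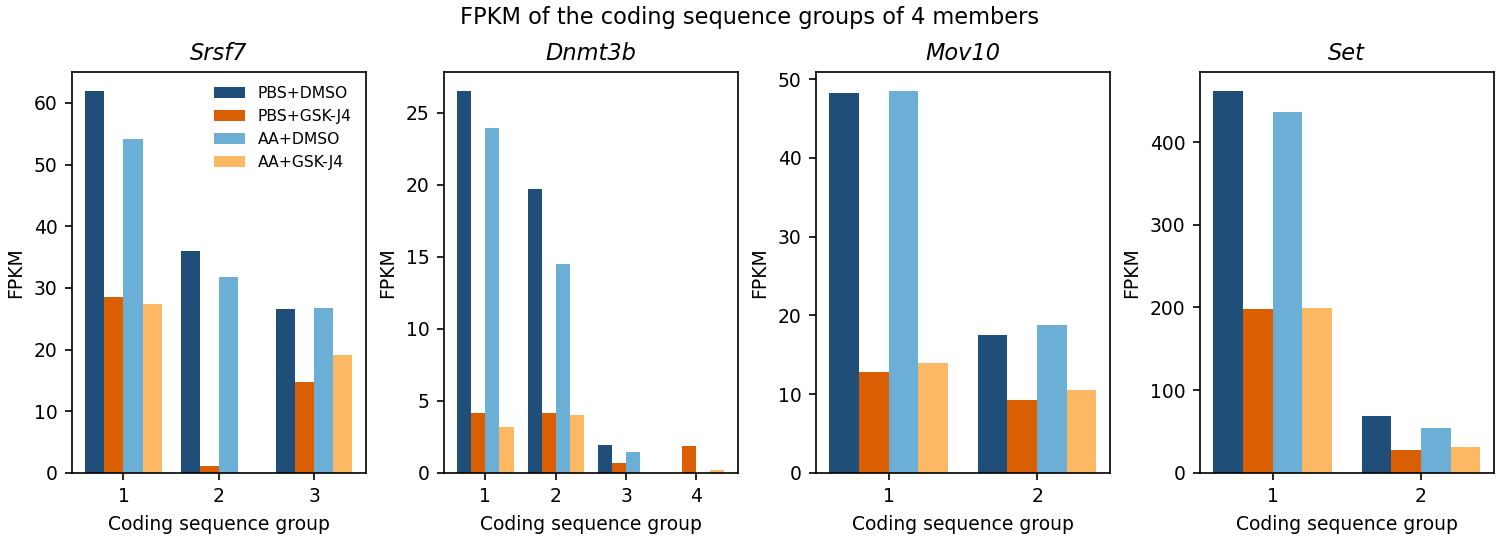
FPKM (y axis) of each coding sequence group (x axis, ordered by level in PBS+DMSO) of *Srsf7*, *Dnmt3b*, *Mov10* and *Set*, with 1 bar per library and no error bars since each condition is 1 library. The second group of *Srsf7* is near 0 in both GSK-J4 libraries, while its last group keeps 14.8 and 19.1 FPKM.

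Chaperones and their partners gave 8 members, with ratios from 0.319 to 0.491 in PBS and 0.322 to 0.482 in AA. *Hspa8*, the constitutive HSP70 of the cytosol and the member with the highest level, fell in PBS from 2552 to 997 FPKM and in AA from 2336 to 1001 FPKM. *Hspd1*, the HSP60 of mitochondria, fell in PBS from 821 to 340.2 FPKM and in AA from 757 to 354 FPKM. *Stip1*, which joins HSP70 to HSP90, fell in PBS from 316 to 143 FPKM and in AA from 291 to 136 FPKM. The immunophilins that bind HSP90 were members as well: *Fkbp4* fell in PBS from 281 to 127 FPKM and in AA from 276 to 114 FPKM. *Ppid*, the cyclophilin of that kind, fell in PBS from 125 to 47.1 FPKM and in AA from 117 to 47.2 FPKM. *Fkbp5*, also a target of the glucocorticoid receptor, fell in PBS from 11.2 to 3.58 FPKM and in AA from 10.6 to 3.40 FPKM. *Cacybp* had ratios of 0.377 without and 0.421 with AA. Of 16 genes of HSP70, HSP90 and their partners 7 are members, where 3.61% of all well expressed genes with allowed names are. The 16 were put together after the values were seen and include partners listed because they are members. The count is therefore partly fixed by the choice of genes and is a description only. Among the 16, *Hspa9*, the HSP70 of mitochondria, had the highest ratios, 0.859 without and 1.02 with AA. *Hsp90aa1* had ratios of 0.496 without and 0.605 with AA.

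Both cytoplasmic actin genes are members, and they differ in size of fall. *Actg1* fell in PBS from 1067 to 329 FPKM and in AA from 998 to 341 FPKM, and *Actb* fell in PBS from 963 to 417 FPKM and in AA from 980.0 to 425 FPKM. Their ratios were 0.308 without and 0.342 with AA for *Actg1* and 0.433 without and 0.434 with AA for *Actb*. *Cfl1*, which severs actin filaments, fell in PBS from 523 to 205 FPKM and in AA from 489 to 208 FPKM. *Arhgdia*, *Twf2*, an actin monomer binding protein, and *Trip10*, which links Cdc42 to actin, complete the group of 6, with ratios from 0.308 to 0.471 in PBS and 0.342 to 0.455 in AA. *Actb* and *Actg1* are nearly alike in coding sequence, and *Actb*, *Actg1*, *Hspa8*, *H2afz*, *Hspd1*, *Cfl1* and *Set* have close copies elsewhere in the genome, so their values are uncertain where reads could match several places.

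Mitosis and chromosome segregation gave 9 members, with ratios from 0.339 to 0.479 in PBS and 0.283 to 0.498 in AA. Many genes of mitosis carry CCAAT boxes, the sites of NF-Y, close before the start of transcription. Of the 9, 8 have a promoter in the RefSeq table (GRCm38.p6), and 7 of these 8 (87.5%) hold CCAAT on either strand in the 250 bases before the start. That compares with 1357 of 3482 promoters of well expressed genes (39.0%) and 11120 of 32851 promoters of the whole table (33.8%). Mitotic genes that are not members were not compared, so the share cannot be taken as a trait of the members. CCAAT was on a list of motifs, but the mitotic genes were picked out after their values were known and after several motifs had been looked over in the role groups, so these shares are a description of letters and not of binding. The starts are those of RefSeq, and some or all of the bases printed for each gene lie inside the locus given with its FPKM. The 120 bases before the start are printed for the 4 members with 2 copies there, 5′ to 3′ in the sense of the gene, with CCAAT or its reverse complement ATTGG in capitals.
Cks2, chr13:51645112-51645231, plus strand: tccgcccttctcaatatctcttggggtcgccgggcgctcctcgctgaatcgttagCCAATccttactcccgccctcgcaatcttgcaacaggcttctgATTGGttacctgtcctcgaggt
Aurka, chr2:172370571-172370690, minus strand: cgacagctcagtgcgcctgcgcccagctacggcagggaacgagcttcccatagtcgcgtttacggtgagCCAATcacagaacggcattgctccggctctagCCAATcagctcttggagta
Cdk1, chr10:69352913-69353032, minus strand: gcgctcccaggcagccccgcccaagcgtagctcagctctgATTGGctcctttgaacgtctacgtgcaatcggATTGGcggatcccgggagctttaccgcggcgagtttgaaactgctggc
Cenpa, chr5:30666766-30666885, plus strand: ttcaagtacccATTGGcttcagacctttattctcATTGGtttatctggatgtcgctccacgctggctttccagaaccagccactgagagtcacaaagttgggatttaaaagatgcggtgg

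*Cks2*, a subunit of cyclin-dependent kinases and the first of the printed promoters, fell in PBS from 235 to 102 FPKM and in AA from 217 to 106 FPKM. *Cdk1*, the kinase that drives entry into mitosis, fell in PBS from 56.4 to 25.5 FPKM and in AA from 49.6 to 24.5 FPKM. *Aurka*, a kinase of spindle poles, fell in PBS from 81.2 to 36.2 FPKM and in AA from 71.4 to 35.6 FPKM, and shares its locus with *Cstf1* in the tables. *Cenpa*, the histone H3 of centromeres, fell in PBS from 19.4 to 9.30 FPKM and in AA from 22.0 to 9.25 FPKM. In PBS, *Plk1* and *Racgap1* had the lowest ratios of the group. *Plk1*, a kinase of mitotic entry and spindle formation, fell in PBS from 81.7 to 27.7 FPKM and in AA from 73.5 to 27.2 FPKM. *Racgap1*, a part of the centralspindlin complex of cell division, fell in PBS from 32.1 to 11.7 FPKM and in AA from 34.2 to 9.70 FPKM. *Nuf2*, a kinetochore protein and the 1 of the 8 without the motif, fell in PBS from 17.5 to 8.29 FPKM and in AA from 16.4 to 4.998 FPKM. *Prc1*, which bundles microtubules of the spindle midzone, had ratios of 0.453 without and 0.413 with AA.

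Genes of the G1 and S phases gave 7 members. *Ccnd3*, a cyclin of the G1 phase, fell in PBS from 200.1 to 92.9 FPKM and in AA from 227 to 96.1 FPKM. *Ccne1*, a cyclin of entry into S phase, fell in PBS from 139 to 59.3 FPKM and in AA from 134 to 55.7 FPKM. *Ccnd1*, another D cyclin, fell in PBS from 51.5 to 25.5 FPKM and in AA from 41.0 to 18.2 FPKM. *Ccne2* is no member, with ratios of 0.619 without and 0.665 with AA. *Ccnd3* and *Bysl*, a ribosome assembly factor that is also a member, share 1 locus. *Myc*, the transcription factor of growth genes, fell in PBS from 15.3 to 6.49 FPKM and in AA from 12.8 to 5.004 FPKM. Its largest coding sequence group alone had ratios of 0.386 without and 0.563 with AA. *E2f8*, a repressor of E2F targets, had ratios of 0.479 without and 0.399 with AA. *Tk1*, the thymidine kinase of S phase, had ratios of 0.486 without and 0.448 with AA. By gene name 8 of 90 well expressed cell cycle genes (8.89%) are members, against 3.61% of all well expressed genes with allowed names. The median ratios of the 90 were 0.685 and 0.710.

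Nuclear transport and the lamina gave 5 members. *Kpnb1*, the importin that carries cargo into the nucleus, fell in PBS from 181 to 71.2 FPKM and in AA from 155 to 73.0 FPKM. *Lmnb1*, a B-type lamin, fell in PBS from 188 to 77.5 FPKM and in AA from 167 to 75.7 FPKM. *Rcc1*, which loads GTP onto Ran on chromatin, fell in PBS from 93.4 to 41.3 FPKM and in AA from 88.9 to 38.9 FPKM. The nuclear pore gene *Nup153* had ratios of 0.461 without and 0.497 with AA.

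Histone variants and acidic nuclear proteins gave 5 members. *H2afz* encodes the histone variant H2A.Z and fell in PBS from 1334 to 538 FPKM and in AA from 1324 to 616 FPKM. *Anp32e*, which takes H2A.Z off chromatin, fell in PBS from 98.2 to 38.9 FPKM and in AA from 81.9 to 39.5 FPKM. *Anp32a*, of the same family, fell in PBS from 73.9 to 27.1 FPKM and in AA from 67.7 to 22.8 FPKM. *Set*, an inhibitor of histone acetylation, fell in PBS from 530.0 to 226 FPKM and in AA from 490.0 to 230.4 FPKM. *Hira*, a chaperone of histone H3.3, had ratios of 0.491 without and 0.482 with AA.

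Among 11 members that act on chromatin, *Dnmt3b*, a de novo DNA methyltransferase, had the lowest mean ratio of all members. It lies at chr2:153649467-153687742 (mm10, as the tables give the locus) and fell in PBS from 48.2 to 10.9 FPKM and in AA from 39.9 to 7.38 FPKM. Of its 2 main coding sequence groups, the first fell in PBS from 26.5 to 4.14 FPKM and in AA from 24.0 to 3.17 FPKM. The other fell in PBS from 19.7 to 4.14 FPKM and in AA from 14.5 to 4.01 FPKM. *Dnmt1*, the maintenance methyltransferase, had ratios of 0.801 without and 0.806 with AA, and *Dnmt3l*, a cofactor without catalytic activity, of 0.491 without and 0.604 with AA. *Trim28*, the corepressor of KRAB zinc finger proteins, fell in PBS from 682 to 269.6 FPKM and in AA from 608 to 264 FPKM. *Zfp57*, a KRAB zinc finger protein that keeps methylation at imprinted regions and binds Trim28, fell in PBS from 134 to 64.2 FPKM and in AA from 134 to 67.003 FPKM. *Ehmt2*, a methyltransferase of lysine 9 on histone H3, fell in PBS from 36.8 to 18.0 FPKM and in AA from 35.9 to 16.8 FPKM. *Kdm4c*, a demethylase of the same residue and of the JmjC family, as Utx is, fell in PBS from 23.1 to 11.2 FPKM and in AA from 18.1 to 9.03 FPKM. *Bend3*, a repressor at pericentromeric chromatin, had ratios of 0.314 without and 0.365 with AA, and *Ruvbl1*, an ATPase of chromatin remodelling complexes, of 0.436 without and 0.446 with AA.

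Stem cell and early embryo genes gave 12 members, all at under 70 FPKM in PBS+DMSO. *Otx2*, a transcription factor that rises as ESCs leave the naive state, fell in PBS from 16.6 to 4.40 FPKM and in AA from 12.2 to 3.93 FPKM. *Dppa3*, also called Stella, which guards maternal methylation in the zygote, fell in PBS from 35.5 to 13.2 FPKM and in AA from 39.3 to 14.3 FPKM. *Tcf15*, a factor of cells primed to differentiate, had ratios of 0.463 without and 0.450 with AA. *Fgf17*, a secreted factor of the FGF family, fell in PBS from 15.8 to 3.94 FPKM and in AA from 13.7 to 3.12 FPKM. *Bmp4*, a secreted factor that signals through SMAD proteins, fell in PBS from 15.5 to 4.26 FPKM and in AA from 15.04 to 6.04 FPKM. *Dusp6*, a phosphatase of ERK kinases, fell in PBS from 14.99 to 6.54 FPKM and in AA from 13.8 to 6.39 FPKM. *Sgk1*, a kinase induced by serum and glucocorticoids, fell in PBS from 68.8 to 23.7 FPKM and in AA from 72.0 to 27.1 FPKM. *Rest*, a repressor of neuronal genes, had ratios of 0.410 without and 0.461 with AA.

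Genes best known from neurons gave 5 members, all well expressed in these ESCs. *Stmn2*, which destabilises microtubules in growing axons, fell in PBS from 62.4 to 22.4 FPKM and in AA from 77.2 to 33.2 FPKM. *Gap43*, a protein of the growth cone membrane, fell in PBS from 17.4 to 6.76 FPKM and in AA from 12.8 to 3.67 FPKM. *Basp1*, a protein of the same membrane, fell in PBS from 54.5 to 22.8 FPKM and in AA from 59.0 to 18.8 FPKM. *Ina*, a neurofilament protein, had ratios of 0.366 without and 0.450 with AA, and *Tubb2b*, a beta tubulin, of 0.422 without and 0.416 with AA. *Pax6*, the neural marker with a value, was at or below 1.44 FPKM in all 4 libraries.

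**Figure D3:**
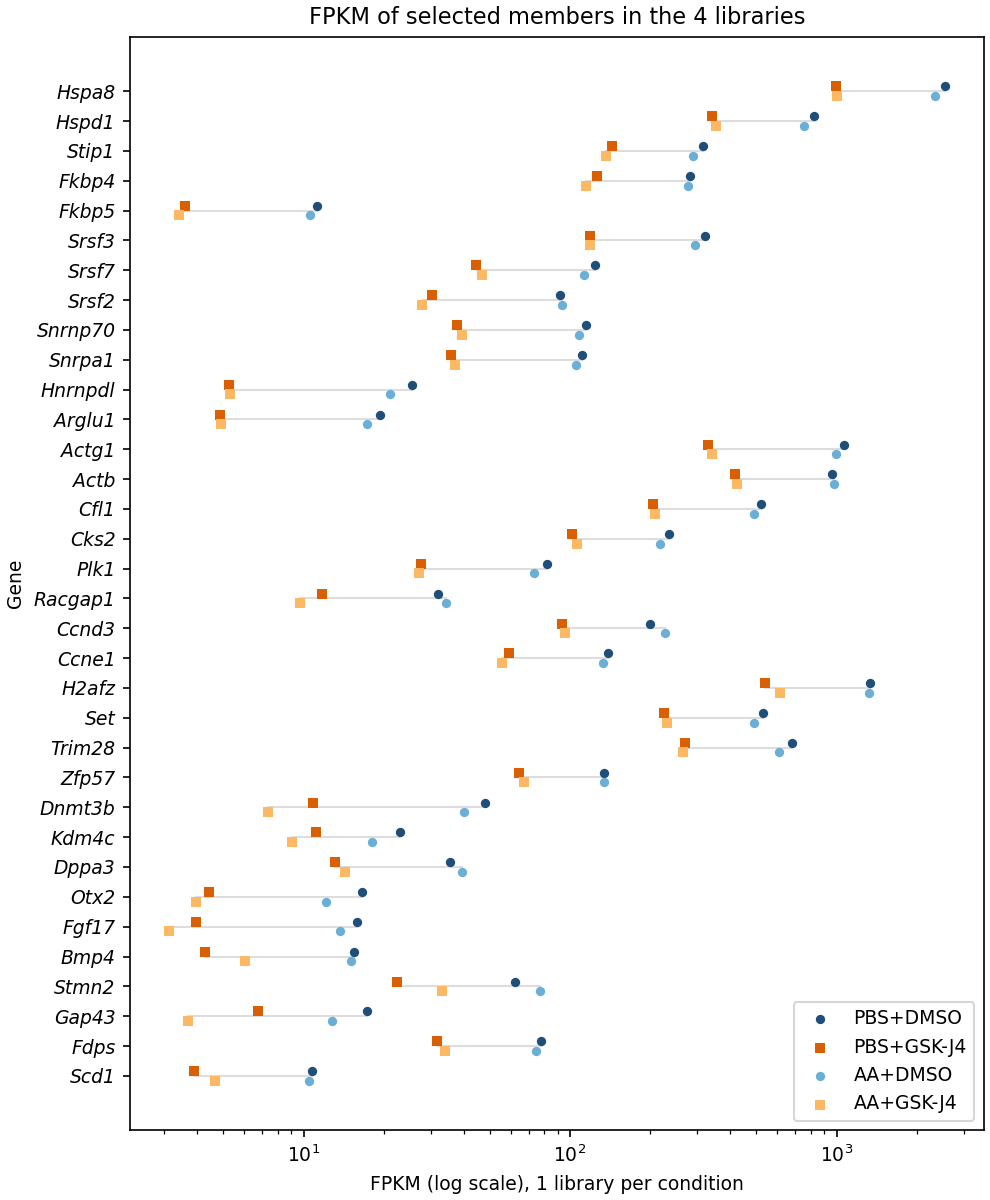
FPKM on a log scale (x axis) of 34 members in the 4 libraries, 1 point per library, with circles for DMSO and squares for GSK-J4. In each row both squares lie to the left of both circles, from *Hspa8* at 2552 FPKM in PBS+DMSO down to *Scd1* at 10.8.

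Sterol, fatty acid and lipid metabolism gave 8 members, and nucleotide, methyl donor and polyamine metabolism gave 6. The 6 include *Apex1*, a DNA repair enzyme, and *Galk1*, a galactokinase, which lie outside the name of the group. *Fdps*, an enzyme of the mevalonate pathway, fell in PBS from 77.5 to 31.7 FPKM and in AA from 74.7 to 34.1 FPKM. *Scd1*, the desaturase that makes monounsaturated fatty acids, fell in PBS from 10.8 to 3.87 FPKM and in AA from 10.5 to 4.63 FPKM. *Mat2a*, which makes the methyl donor S-adenosylmethionine, fell in PBS from 91.8 to 29.6 FPKM and in AA from 78.3 to 32.5 FPKM. *Sms*, the spermine synthase, fell in PBS from 91.5 to 32.8 FPKM and in AA from 84.1 to 37.8 FPKM. *Pnp*, a purine salvage enzyme, had ratios of 0.378 without and 0.430 with AA. *Mat2a* shares its locus with *Ggcx*.

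Other role groups concern protein synthesis. Nucleolar, ribosome assembly and RNA modification genes gave 12 members, with ratios from 0.393 to 0.485 in PBS and 0.441 to 0.499 in AA. By gene name, 2 of 29 well expressed ribosome biogenesis and nucleolus genes (6.90%) are members. The share was 3.61% over all well expressed genes with allowed names and 5.79% at 50 to 100 FPKM, where the median of the 29 (57.6 FPKM) lies. *Nolc1*, a nucleolar phosphoprotein, fell in PBS from 165 to 70.7 FPKM and in AA from 148 to 67.5 FPKM, and *Ddx21*, a nucleolar helicase, fell in PBS from 139.6 to 60.2 FPKM and in AA from 122 to 59.9 FPKM. *Eif4e*, which binds the mRNA cap, fell in PBS from 84.8 to 37.7 FPKM and in AA from 73.3 to 36.6 FPKM. *Eef1d*, a subunit of the exchange factor of elongation, fell in PBS from 243 to 112 FPKM and in AA from 238 to 114 FPKM. *Naa10*, an N-terminal acetyltransferase, fell in PBS from 110.1 to 44.9 FPKM and in AA from 96.8 to 31.0 FPKM, and shares its locus with *Renbp*. Mitochondrial translation and import gave 6 members, among them *Tomm5*, of the outer membrane import pore, which fell in PBS from 137 to 65.1 FPKM and in AA from 146 to 62.7 FPKM. The ribosomal protein genes themselves were left out by name.

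Outside the role groups stand 23 members. *Car2*, a carbonic anhydrase, fell in PBS from 74.998 to 22.3 FPKM and in AA from 78.7 to 30.8 FPKM. *Mov10* fell in PBS from 65.6 to 22.0 FPKM and in AA from 67.2 to 24.4 FPKM. *Polr2e*, a subunit shared by the RNA polymerases, fell in PBS from 213 to 105 FPKM and in AA from 213 to 105 FPKM. *Tfeb*, a transcription factor of lysosome genes, had ratios of 0.455 without and 0.411 with AA. The class of lysosome and autophagy genes, drawn up by gene name, held no member.

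Well expressed genes were also sorted into gene classes by name patterns. Of 32 classes 19 held at least 1 member, and 13 held none. Among all well expressed genes with allowed names 3.61% are members. The share was 3 of 24 (12.5%) for cholesterol and lipid synthesis, 4 of 35 (11.4%) for FGF, RAS and MAPK signalling, 6 of 54 (11.1%) for chaperones and 7 of 64 (10.9%) for splicing factors. The 4 signalling members include *Dusp27*, which was taken in by its name alone and stands outside the role groups. It was 5 of 52 (9.62%) for actin, tubulin and their regulators and 8 of 90 (8.89%) for the cell cycle. Mitochondrial ribosomal proteins (3 of 64, 4.69%) and translation factors (2 of 44, 4.55%) lay close to the share over all genes. The counts are small, and no test was run on them. Median levels in PBS+DMSO were 86.4 FPKM for chaperones and 91.7 for splicing factors, where the share over all genes at 50 to 100 FPKM was 5.79%. They were 25.1 for cholesterol and lipid synthesis and 21.1 for FGF, RAS and MAPK signalling, where the share at 20 to 50 FPKM was 2.41%. The part of level in the class shares was not tested.

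By these name patterns, no member was found among 96 vesicle transport genes, 79 ubiquitin and E2 genes or 45 Tmem-named genes. There was none among 44 genes of the respiratory chain and ATP synthase, whose Nduf genes the rule left out. Nor was there any among 34 genes of entry to the ER and glycosylation or 33 lysosome and autophagy genes. The median ratios of these classes differ. They were 1.04 and 1.09 for lysosome and autophagy genes, 0.810 and 0.858 for vesicle transport and 0.682 and 0.691 for the respiratory chain. Genes of the same level bin had medians of 0.743 and 0.775 for lysosome and for vesicle genes. For the respiratory chain these medians were 0.620 and 0.650, below those of the class. Antioxidant genes (32), adhesion genes (28), genes of tRNA synthetases and amino acid synthesis (26) and apoptosis and p53 genes (14) held none either. Nor did glycolysis genes (13), matrix genes (13) and imprinted genes (6). Members that the name patterns missed include *Yars2*, a mitochondrial tRNA synthetase, *Emc8*, of an ER membrane complex, and *Calcoco2*, an autophagy receptor. Among all well expressed genes with allowed names 3.61% are members, and whether any of these classes holds fewer than that share was not tested. The lack of members is thus a description and no result about these classes.

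**Figure D4:**
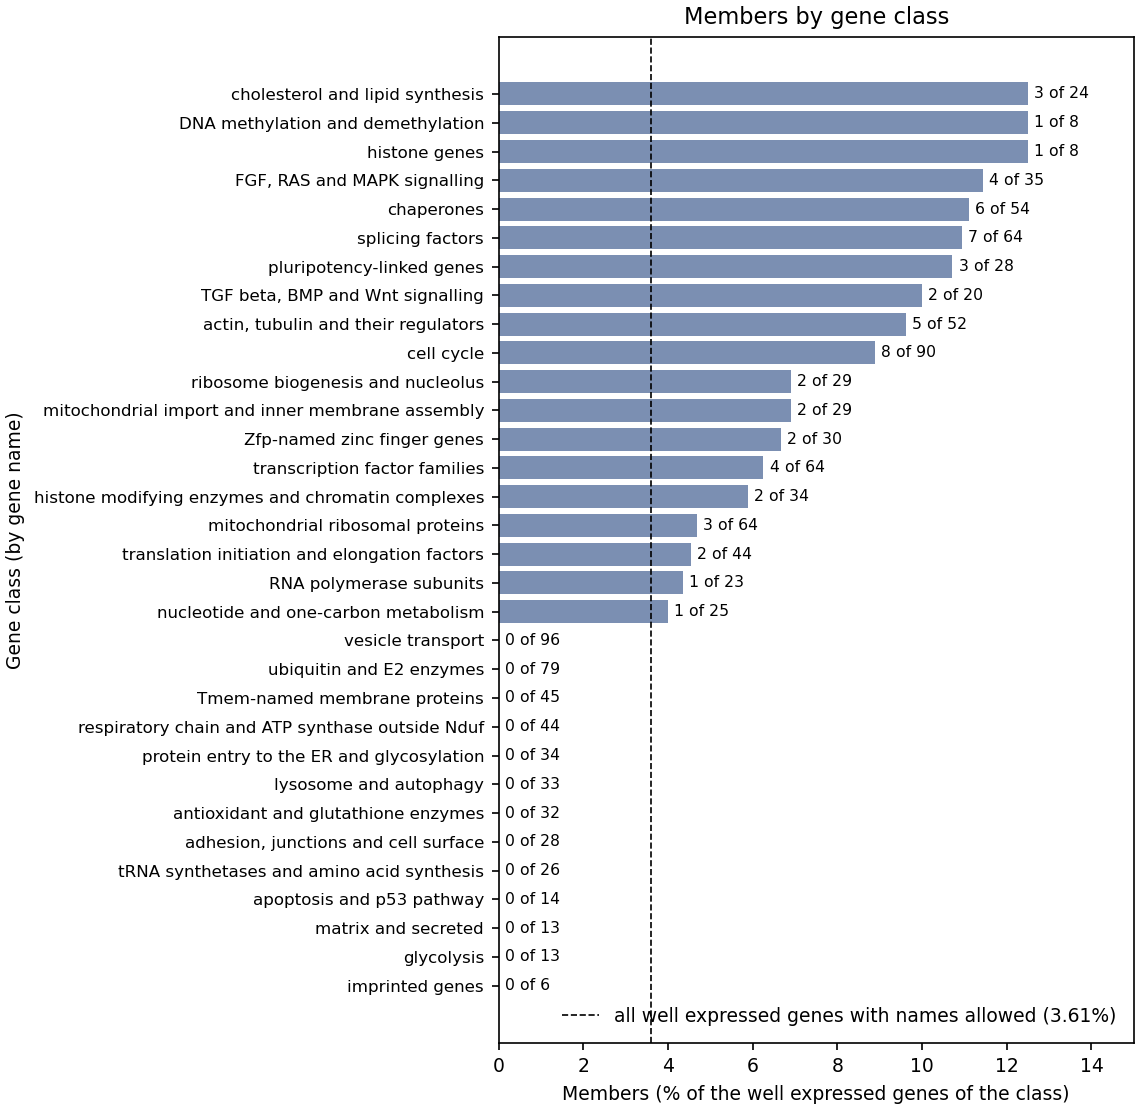
Share of members (x axis, percent) among the well expressed genes of each of 32 gene classes (y axis), with the number of members and of genes beside each bar and the share over all genes with allowed names dashed at 3.61%. Bars of the smallest classes rest on 1 to 3 genes, and 13 classes have no member.

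Members were more frequent among highly expressed genes. They made up 1.86% of genes at 10 to 20 FPKM in PBS+DMSO, 2.41% at 20 to 50, 5.79% at 50 to 100, 9% at 100 to 200 and 10.6% at 200 or more. The median ratio of all genes fell with level in the same way, from 0.836 to 0.599 in PBS and from 0.845 to 0.614 in AA. The level in PBS+DMSO is also the divisor of the ratio without AA, and the part of level in the choice of members was not tested.

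**Figure D5:**
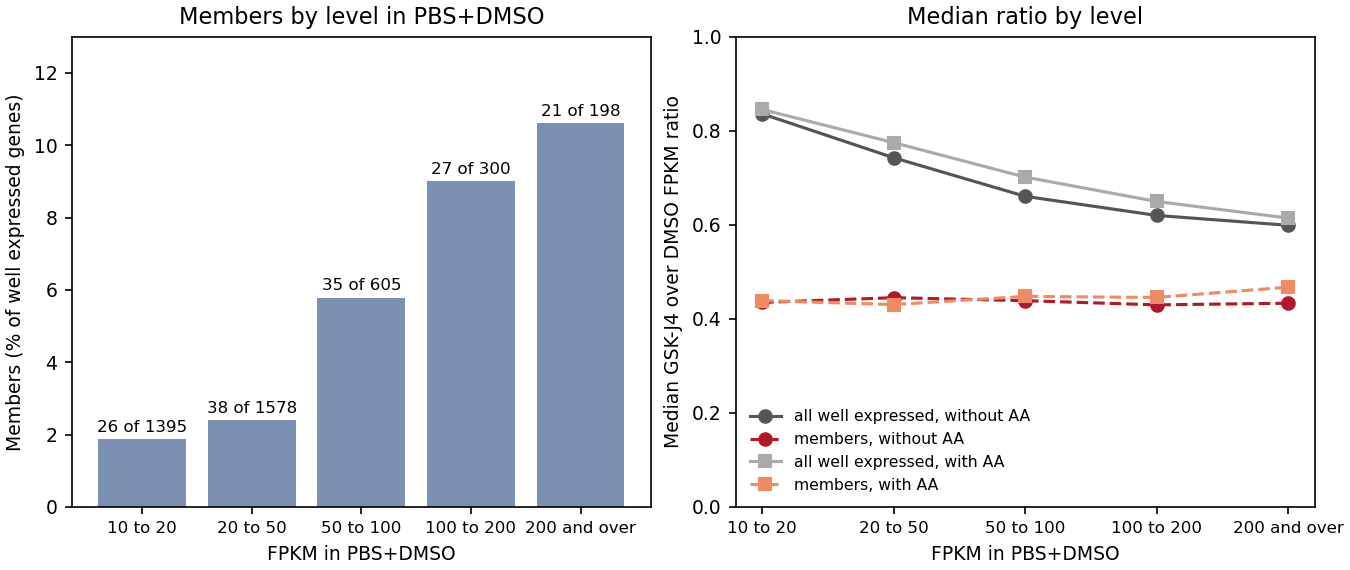
Left, members as a percent of well expressed genes with allowed names (y axis) by FPKM in PBS+DMSO (x axis); right, median GSK-J4 over DMSO ratio of all these genes and of the members in the same bins. The share rises from 1.86% to 10.6%, while the members' medians stay between 0.430 and 0.467.

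AA over PBS was not used by the rule, but these ratios share libraries with those that chose the members. Between the DMSO libraries, the median AA over PBS ratio of the members was 0.944, with a range of 0.735 to 1.24, and 107 of 147 (72.8%) lay below 1. Over all well expressed genes 69% lay below 1, with a median of 0.961. Between the GSK-J4 libraries, the members' median was 0.982, and 88 of 147 (59.9%) lay below 1, against 53.6% of all. With AA alone, 136 of 147 members (92.5%) were within 1.2-fold of PBS+DMSO, against 94.1% of all well expressed genes. In the GSK-J4 libraries 83.7% of the members were within 1.2-fold, against 91.9% of all well expressed genes.

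The ratios without and with AA lay within 1.2-fold of each other in 125 of 147 members (85.0%) and in 90.2% of all well expressed genes. The rule used both ratios, so this is a description. The ratio was lower without AA in 91 of 147 members (61.9%) and in 63.0% of all well expressed genes. The ratio was higher with AA by the most in *Bmp4* (0.275 without and 0.401 with AA), *Tspan17* (0.351 without and 0.468 with AA) and *Enpp3* (0.333 without and 0.441 with AA). It was lower with AA by the most in *Nuf2* (0.473 without and 0.305 with AA), *Gap43* (0.389 without and 0.287 with AA) and *Basp1* (0.418 without and 0.318 with AA). In DMSO, the AA over PBS ratio was highest in *Stmn2* (1.24), *Bcl3* (1.21) and *Mrps12* (1.18) and lowest in *Otx2* (0.735), *Gap43* (0.738) and *Ina* (0.760). None of the members passed 2-fold there.

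Gene structure was compared with that of all well expressed genes. In the GENCODE M21 annotation (GRCm38), all 147 members and 4257 of 4279 well expressed genes were matched. The median gene span was 12.4 kb for the members and 18.0 kb for all. The median transcript was 2278 and 2513 nt, the median coding sequence 1176 and 1182 nt, and the median number of exons 8 and 9. A transcript annotated as a target of nonsense-mediated decay was present in 27.2% of members and 30.5% of all, and a retained-intron transcript in 68.7% and 66.7%. On the X chromosome lie 6 of 147 members and 160 of 4279 well expressed genes. The share of well expressed genes that are members ran from 0.714% on chromosome 12 to 5.96% on chromosome 14 among the numbered chromosomes and X. At a locus shared with another gene name lie 23 members (15.6%), against 13.2% of all well expressed genes.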

How the data were processed

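RNA-seq libraries from LF2 ESCs under 4 conditions, 1 library each, were analysed. The authors removed duplicate reads, aligned single-end reads to mm10 with TopHat2 and estimated levels with Cufflinks2, and they deposited FPKM per coding sequence group in 2 tables. Versions are not given in the sources used here. The columns are headed as log10 but hold linear FPKM. FPKM gives no read count, so depth and counting error are unknown. In low values, 41 of 179 ratios of AA+DMSO to PBS+DMSO lay within 0.2% of whole-read steps, too few to recover reads. The tables also hold the authors' own fold changes, p-values and q-values, which were not used.

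FPKM were summed per gene name over 11033 coding sequence groups, and 157 genes with a failed estimate were left out. No pseudocount was used. Ratios were computed with Python 3.11.15, numpy 2.4.6 and pandas 2.3.3, and the rule was checked on simulated data. Other minimums, thresholds, pseudocounts and scalings were tried. The members and gene lists were chosen with earlier results of these data known.

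Genes were named by a rule: the 10 members with the lowest mean log2 ratio, the 10 with the highest level, up to 3 of highest level per class, the 3 nearest the threshold on each side, and the 3 at each end of the difference between comparisons and of the AA over PBS ratio in DMSO. Other genes were named for their role or family after their values were seen, and 1 gene that the rule names is not reported here. RefSeq promoters matched 112 of 147 members (76.2%), under the 80% needed, so the comparison of 10 motifs over all members is void.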

Additional observations from a re-analysis of the deposited data

How the results depend on the processing

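No paired analysis was possible because each condition is 1 library, and for the same reason no library could be left out. The number of members was 305 with no minimum FPKM, 33 with upper quartile scaling, 24 with same total scaling, 19 with median centring, 68 with a pseudocount of 5, 25 at a ratio of at most 0.4 and 1086 at a ratio of at most 0.67. It was between 117 and 186 under the other 7 alternatives. Genes at 0.5 or less numbered 258 without AA, and 61, 45, 40 and 129 under upper quartile scaling, same total scaling, median centring and a pseudocount of 5. With AA they numbered 212, and 60, 44, 38 and 99 in the same order. The members' median log2 ratio without AA was -0.91, -0.81, -0.78 and -1.06 under those settings, and with AA it was -0.91, -0.83, -0.79 and -1.02. Class counts under other scalings were added after the data were seen: under upper quartile scaling, same total scaling and median centring, splicing factors numbered 5, 3 and 3 (7 as reported), chaperones 2, 1 and 1 (6 as reported) and cell cycle genes 1 under each (8 as reported). The pseudocount pulls the ratios of low genes towards 1 by its construction, and median centring takes the shift of the median gene out of every ratio. With upper quartile scaling the median log2 ratio of all well expressed genes was still -0.14 and -0.12 without and with AA, and with same total scaling -0.03 and -0.04. How far that shift is technical was not tested. The depth of the libraries is unknown, so the counting error of genes near 10 FPKM is not known either.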

Other observations

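A ratio of 0.5 or less was seen in 103 well expressed genes without AA alone and in 57 with AA alone. In the other comparison the first had a median ratio of 0.532 (0.502 to 0.818), and 83 of 103 were at most 0.6. The second had a median of 0.535 (0.502 to 0.925), and 42 of 57 were at most 0.6. All of them lay below 1 in both comparisons.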
